A study of Oryza sativa with 19 samples.

Results

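Roots of the rice variety Nipponbare (NB, a japonica rice) were compared with shoots of the same variety on 60-mer oligonucleotide arrays. The comparison took 8 of the 19 arrays of the series, the ones whose sample titles name NB root or NB shoot. The arrays came in 2 designs, S1 and S2, and each design held 2 root and 2 shoot arrays. NB root was seedling root, grown per the labels for 10 days in a hydroponic medium of diluted Hyponex in a growth chamber. NB shoot was seedling shoot, also labelled as grown for 10 days, in soil under natural light in a greenhouse, while the study's methods give the shoots as older seedlings than the roots. No treatment is given for either tissue. The methods also give Trizol for the shoot RNA and the RNeasy kit for the other tissues, while the labels give RNeasy for both. Tissue, growth environment, possibly age and possibly RNA extraction therefore cannot be told apart. Per the methods, RNA was pooled over plants and hybridised repeatedly, so the 2 arrays of a group may be hybridizations of 1 pool and the p-values below may measure technical spread alone. The remaining arrays (NB panicle, NB callus and IR64 shoot, from an indica variety) entered the fits through the filter on detected probes and the shared estimate of spread. The study found IR64 signals generally lower than those of NB, which it says may stem from sequence differences between the varieties. It left IR64 out of its further analyses. A low IR64 signal below thus need not mean low expression.

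Roots anchor the seedling and take up water and mineral ions, and they live on sugars sent from the leaves. Shoots of seedlings are mostly leaf blade and sheath, in which nuclear genes for chloroplast proteins give some of the most abundant messenger RNAs of the plant. A signal from whole roots or shoots is a mean over many cell types, and fewer cells of a type cannot be told apart from less RNA per cell. The probes were designed on full-length cDNA, that is, copies of complete transcripts, and on predicted coding sequences. The names of the probes tell 7 classes apart. AK probes bear the name of a single sequenced cDNA clone. COMM probes (ending in _C) carry the mark common and SPEC probes (ending in _S and a number) the mark specific, with the number of a cDNA locus, and SPEC names also hold a clone. E5 probes and END3TU probes (written E3TU) carry locus numbers too, and CDS and END probes carry the number of a predicted gene model. The data files pair none of these names with a gene function, and 0 matched the table of gene names used here, so the labelled tissues could not be checked against marker genes such as those for chlorophyll-binding proteins. The paper itself lists gene loci and protein domains for some AK clones, and that list was not used. The sequences of the probes were not used here.

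Signals are given as scaled signal, which is the processed signal of an array after each channel was set to a median of 1000 with an upper limit of 100000. The value of an array was the mean of its 2 channels on the log2 scale, since both channels held the same RNA. Replicates of a tissue lay close together across probes. The correlation was 0.974 between the root arrays and 0.973 between the shoot arrays on S1, and 0.936 and 0.942 on S2, against 0.717 to 0.803 between a root and a shoot array. Probes are not independent replicates. On S1 the median background-subtracted signal was 114 and 113 in root, against 100.3 and 56.1 in shoot. On S2 it was 126 and 47.9 in root, against 82.0 and 40.7 in shoot. Root thus averaged 30.3 more than shoot, and an exact two-sided permutation test within the designs did not separate this from 0 (p = 0.222). The share of probes well above background in both channels averaged 4.80 percentage points more in root than in shoot, which the same exact test did not separate from 0 (p = 0.278). For both measures the smallest p possible was 0.0556 by this exact test. It could therefore not fall below 0.05 and decides neither question. The replicate 2 arrays of both tissues were scanned on 1 day, while the replicate 1 arrays of root and shoot were scanned on different days.

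Roots and shoots differed at 9418 of 36868 probes tested on S1 and at 4897 of 36117 on S2 (limma, adjusted p below 0.05). On S1, 5519 probes were higher in root (15.0% of those tested) and 3899 were lower (10.6%). On S2, 2933 were higher (8.12%) and 1964 were lower (5.44%). In either direction together 25.5% of the probes were called on S1 and 13.6% on S2. The SE of a difference had a median of 0.39 on S1 and 0.55 on S2 on the log2 scale, and the smallest difference called was 0.80 and 1.33. With scan date as a block 12375 probes were called on S1 and 8811 on S2, higher in root more often than lower on each. Only the replicate 2 arrays of root and shoot shared a scan day, so within a day that fit compares single arrays. It is therefore no firm adjustment for the date. Single arrays weighed on the counts. Without NB root replicate 2, 3029 probes were higher and 2531 lower on S1, and 986 were higher and 992 lower on S2, where the excess of higher calls was thus lost.

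Many of these differences were large. At least 8-fold separated the tissues for 1264 probes higher and 1061 lower in root on S1, and for 1514 higher and 994 lower on S2. At least 32-fold was reached by 302 and 274 probes on S1 and by 383 and 298 on S2, and at least 128-fold by 63 and 35 on S1 and 69 and 42 on S2, higher before lower in root each time. These counts rest on fitted differences, which are no bounds where a tissue was at background and fall short where the brighter tissue was at the upper limit. Both replicates moved the same way in each called probe that was measured on all 4 arrays, 9408 on S1 and 4889 on S2. The calls were made on these same arrays, so this agreement was largely built in and is no replication. Over all probes tested, the difference between the replicate 2 arrays, scanned on 1 day, correlated with that between the replicate 1 arrays at 0.885 on S1 and 0.886 on S2. The median difference over all probes tested was -0.05 on S1 and -0.09 on S2. Scaling to the 75th percentile in place of the median shifted it by -0.14 and -0.21, so medians near 0 below carry no firm sign.

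The share of probes called grew with the signal. The probes tested were put into 10 bins of equal size by mean signal. In bin 1, the dimmest, on S1 6.70% of the probes were higher and 6.62% lower in root. In bin 10 these shares were 23.6% and 14.8%. On S2 they were 0.581% and 1.77% in bin 1, 12.6% and 9.80% in bin 9, and 10.9% and 7.61% in bin 10. The median difference changed along with the signal. It was -0.03 in bin 1, -0.17 in bin 4 and 0.18 in bin 9 on S1. On S2 it was -0.26 in bin 1, -0.32 in bin 2 and 0.31 in bin 9. The negative control spots were dimmer in root than in shoot at the same replicate number. Their median log2 signal was 5.99 and 5.92 in root against 6.07 and 6.88 in shoot on S1. On S2 it was 5.78 and 7.0002 in root against 6.34 and 7.30 in shoot. Their part in the medians of dim probes was not tested.

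**Figure D1:**
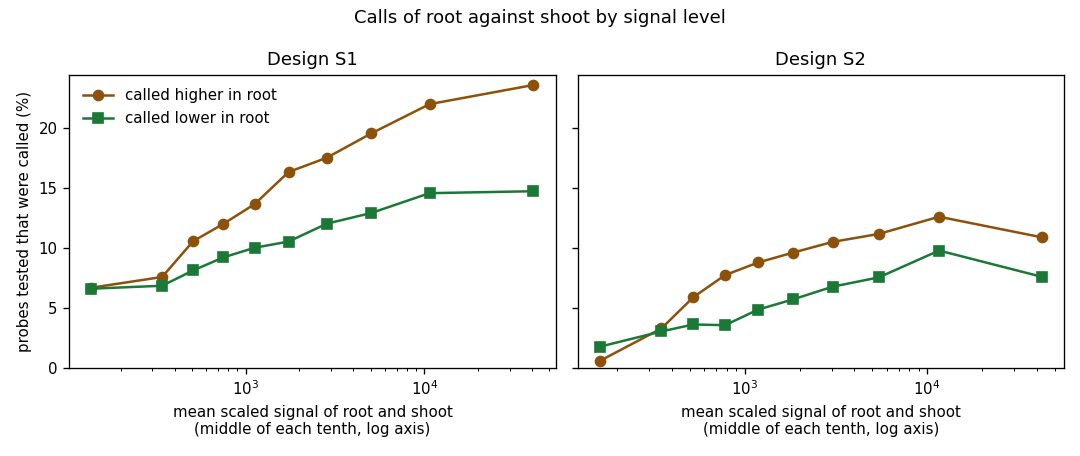
Share of the probes tested that limma called higher (brown circles) or lower (green squares) in root than in shoot, in percent, for 10 bins of equal size by the mean scaled signal of both tissues (log axis), with S1 on the left and S2 on the right. The share of higher calls grew from bin to bin up to bin 9 on each design, and lower calls were the more frequent ones in bin 1 of S2 alone.

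Some probes were well above background in 1 tissue only. On S1, 783 probes were well above background on both root arrays and in neither channel of a shoot array, and 106 were so in shoot and not in root. On S2 these numbers were 856 and 148. Not all of these probes were called different. Of the root-only probes, 494 of 783 on S1 and 439 of 856 on S2 were called higher in root. Of the shoot-only probes, 105 of 106 and 98 of 148 were called lower. The median signals of the arrays, given above, differed too, and their part in the split between root-only and shoot-only probes was not tested. With the weaker rule that a spot only differ from background, 84 probes on S1 and 114 on S2 were found in root only, and 17 and 23 in shoot only. END3TU probes had the largest share found in root only on both designs (2.57% and 3.38%, against 1.86% and 2.04% over all classes), while 0 of the AK probes fell on either side.

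The root probes of this kind ran from the background to the upper limit. For a probe that was not well above background in the dimmer tissue, the fold is a lower bound, taken against the lowest detected signal of each array of that tissue where the probe lay below it. It holds for the scaled processed signals. With normexp background correction, loess and Aquantile in their place, 19 of the 20 probes named here had a fold below this bound, and the folds were 128 to 370.3 higher and 13.6 to 104 lower in root on S1, and 158 to 811 higher and 27.9 to 209 lower on S2. The probes were chosen as the most extreme of those called, so their p-values describe them only. On S1, R12-E3TU-00739R (chromosome 12) had 100000 on both root arrays, against 108 and 199 on the shoot arrays, at least 473-fold higher in root (limma's adjusted p 2.37e-06). It was dim elsewhere too, with 133 in panicle, 81.6 in callus and 136 in IR64 shoot. R10-E3TU-00145F (chromosome 10) had 100000 on both root arrays, against 94.2 and 123 on the shoot arrays, at least 473-fold (limma's adjusted p 4.26e-06), and 559 in panicle, 2892 in callus and 129.8 in IR64 shoot. R02-00721R_C had 98740.1 and 100000 on the root arrays, against 72.6 and 154 on the shoot arrays, at least 470.3-fold (limma's adjusted p 2.37e-06). R07-00011F_C had 83562 and 100000 on the root arrays, against 67.8 and 119 on the shoot arrays, at least 433-fold. R03-00630R_C had 89751 and 92247 on the root arrays, against 122 and 139 on the shoot arrays, at least 431-fold, and it had 66536 in panicle, where R02-00721R_C had 7465.

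On S2 the 5 leading root probes had 100000 on every root array, so their order is not settled and the bound is at least 375-fold for each. Of these, 2 lay close in number to R12-E3TU-00739R of S1. R12-E3TU-00737R had 100.5 and 179 on the shoot arrays (limma's adjusted p 0.000428), and R12-E3TU-00749F had 96.8 and 164 (limma's adjusted p 0.00055). R03-00019R_C had 78.0 and 226 on the shoot arrays and E5_08312, a probe of locus R07-00288F, had 126 and 162. The END probe of gene model 9640.m03694 had 127 and 146. Panicle and callus were at or below 455 for each of these but E5_08312, which had 1154 in panicle and 2698 in callus.

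The leading shoot probes that stayed at background in root covered a wider range of bounds. R03-E3TU-01960F had 123 and 101 on the root arrays, against 69369 and 68542 on the shoot arrays, and was at least 454-fold lower in root. E5_10196 (locus R03-00354R) had 96.2 and 88.1 on the root arrays, against 38656 and 25829 on the shoot arrays, at least 208-fold lower (limma's adjusted p 3.02e-06). E5_12665 (locus R10-00084R) had 102 and 98.1 on the root arrays, against 13556 and 12751 on the shoot arrays, at least 86.5-fold lower (limma's adjusted p 2.55e-06), and stood at 7000.1 in panicle but only at 289 in IR64 shoot. R03-00717R_C and R07-00843F_C were at least 79.4-fold and 51.5-fold lower in root. On S2, R08-00086R_C had 59.2 and 219 on the root arrays, against 100000 on both shoot arrays, at least 502-fold lower (limma's adjusted p 0.000562). R07-00633F_C had 74.3 and 159.9 on the root arrays, against 55617 and 85075 on the shoot arrays, at least 345-fold lower, and R02-00644R_C had 93.0 and 146 on the root arrays, against 50519 and 63324 on the shoot arrays, at least 284-fold lower. The END probe of gene model 9632.m05478 and R11-00120F_C were at least 208-fold and 108-fold lower in root. IR64 shoot had 3703 or more for each of these 10 probes but E5_12665, with 78953 for R03-E3TU-01960F and 95472 for R08-00086R_C. Whether the IR64 sequence differs at E5_12665 was not tested.

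**Figure D2:**
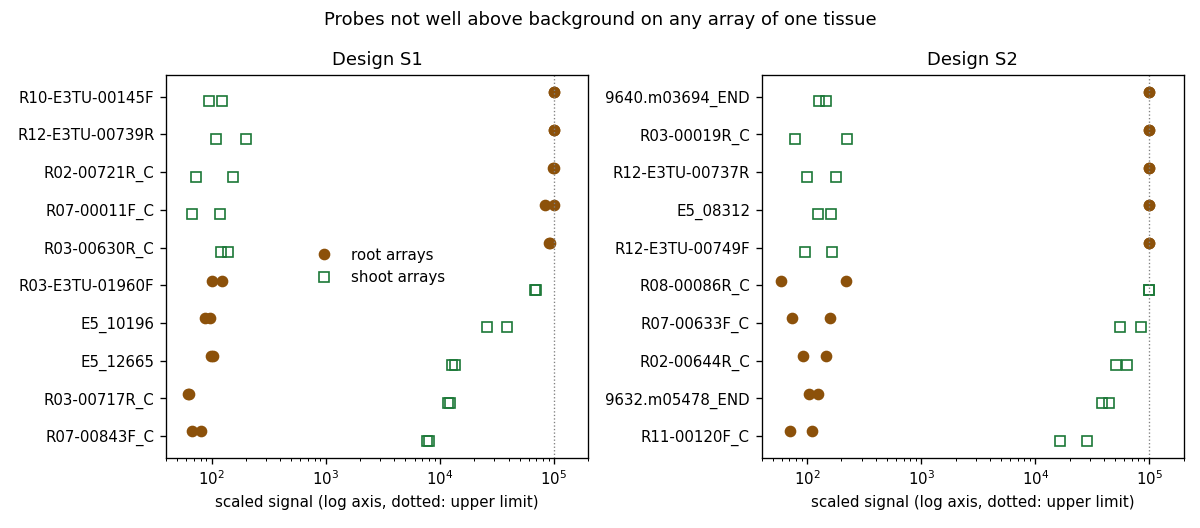
Scaled signal (log axis, dotted line at the upper limit of 100000) on each root array (brown dots) and each shoot array (open green squares) for the 5 probes per direction and design with the largest lower bound of the fold. In every probe the 2 arrays of the bright tissue lay at or above 7646, and those of the other tissue lay at or below 226.

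By the same kind of choice, large differences were also found where both tissues were well above background on all 4 arrays and under the upper limit. R08-00233F_C had 53849.8 and 66936 on the root arrays, against 388 and 364 on the shoot arrays on S1 (log2 difference 7.32, SE 0.32, limma's adjusted p 2.2e-06). R03-00630R_S1, the specific probe of the locus whose common probe led above, had 37362 and 92504 on the root arrays, against 362 and 469 on the shoot arrays (log2 difference 7.16, SE 0.66, limma's adjusted p 4.96e-05), and R06-00742R_C had 27086 and 59949.5 on the root arrays, against 251 and 372 on the shoot arrays (log2 difference 7.04, SE 0.60, limma's adjusted p 3.25e-05). The 2 root arrays of R03-00630R_S1 differed more from each other than those of R08-00233F_C. Under normexp the log2 differences of these 3 probes were 5.43 to 5.88. On S2, R10-00267R_C had 51496 and 97883 on the root arrays, against 273 and 608 on the shoot arrays (log2 difference 7.45, SE 0.59, limma's adjusted p 0.0006), E5_09604 of locus R01-01247R had a log2 difference of 6.85 and R04-00592F_C one of 6.70. Lower in root on S1, the END probe of gene model 9629.m04572 had 319 and 348 on the root arrays, against 66562 and 68205 on the shoot arrays (log2 difference -7.66, SE 0.42, limma's adjusted p 3.67e-06). R01-E3TU-01226F had 246 and 339.8 on the root arrays, against 53199 and 53316 on the shoot arrays (log2 difference -7.53, SE 0.48, limma's adjusted p 6.74e-06), and R07-E3TU-01144F a log2 difference of -7.52. On S2, R02-E3TU-00136F had 394 and 424 on the root arrays, against 97894 and 75764 on the shoot arrays (log2 difference -7.72, SE 0.45, limma's adjusted p 0.00048), and R01-00370F_C and R04-E3TU-00861F had log2 differences of -7.69 and -7.62. IR64 shoot lay between 26282 and 73247 for these 6 shoot probes, and panicle and callus between 115 and 1264.

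The 1028 AK clone probes are printed on both designs, so the same probe was measured on separate arrays. Their differences between root and shoot were alike on S1 and S2, with Pearson's r 0.985 and Spearman's rho 0.979 across probes, a median gap of 0.147 on the log2 scale and the same sign in 959 of 1028 (93.3%). Some clones, such as AK065448, had a difference of 0 on both designs after rounding, so their sign tells no direction. The upper limit gives a difference of 0 to any clone at the limit on every root and shoot array. A difference of 0 at such a clone does not show equal levels, and such clones can count among the 959. Both designs may have been hybridised with the same RNA pools, so the likeness of S1 and S2 is a check of the measurement and not of new plants. All 499 clones that differed by at least 2-fold on S1 had the same sign on S2. On both designs 117 clones were called higher and 39 lower in root, and 0 were called in opposite directions. On S1 alone a further 204 were called higher and 46 lower, and 0 were called on S2 alone. Under normexp, loess and Aquantile normalization the called clones shared by both designs numbered 337 higher and 118 lower.

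Among the clones called higher in root on both designs, AK103001 (clone J033116G04) had the largest mean difference. It had 100000 on both root arrays, against 1077 and 1066 on the shoot arrays on S1 and 99620.5 and 100000 on the root arrays, against 801 and 1266 on the shoot arrays on S2, at least 93.3-fold higher in root on S1 (limma's adjusted p 2.35e-06) and by a log2 difference of 6.63 ± 0.52 (SE) on the S2 arrays (adjusted p 0.00059 by limma). AK060340 (clone 001-008-D02) had 49681 and 67828 on the root arrays, against 913 and 1001 on the shoot arrays on S1, and log2 differences of 5.92 on S1 and 6.08 on S2. Both clones stood at 100000 in panicle on each design. AK105175 (clone 001-104-H09) had log2 differences of 4.71 and 4.83. Its replicates were far apart on S2, with 3.67 for replicate 1 and 5.99 for replicate 2. Among the clones lower in root, AK109434 (clone 006-308-G11) had 72.0 and 99.3 on the root arrays, against 50585 and 45763 on the shoot arrays on S1 and 124 and 191 on the root arrays, against 49956 and 59406 on the shoot arrays on S2. It was not well above background in both channels on any root array, and was at least 317-fold lower in root on S1 and 274-fold on S2, where normexp gave 72.2-fold and 59.7-fold. It was bright in NB panicle, with 77745 on S1 and 74031 on S2. AK061740 (clone 001-038-E11) had log2 differences of -7.09 and -7.16, and AK062851 (clone 001-108-A03), with every shoot array at the limit, was at least 66.1-fold lower in root on S1 and 41.5-fold on S2. Both were at 100000 in IR64 shoot, and in NB callus they had 434 and 721 on S1. In NB panicle AK061740 was at 100000 on both designs, and AK062851 had 27180 on S1 and 33119 on S2. AK061740 had an NB shoot array at the limit on each design, so its fitted differences fall short. The same holds on S2 for AK103001 and AK060340, each with a root array at the limit.

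**Figure D3:**
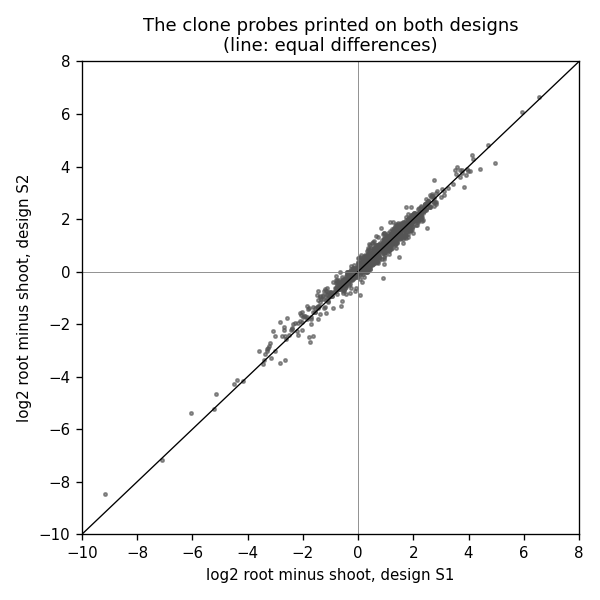
Log2 difference of root minus shoot on S2 against that on S1 for each of the 1028 AK clone probes printed on both designs, with the line of equal differences. The points follow the line from the clones lowest in root to those highest, and 959 of them have the same sign on both designs. The sign of points at 0 on both designs tells no direction.

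Of the AK clones, 83 are also named in a tested SPEC probe, so that 2 probes with different names concern the same clone. The differences of the SPEC and AK probes correlated at 0.649 over these 83 pairs, below the correlation of an AK probe with itself on the other design. The sign was shared in 67 pairs, and in 32 of the 35 whose AK probe differed by at least 2-fold. All 16 SPEC probes called higher and both SPEC probes called lower had AK probes of the same sign.

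The probe classes differed in how often they were called and in which direction. Among clone probes and common probes of cDNA loci, calls higher in root outnumbered calls lower in root. On S1, 31.2% of the AK and 23.8% of the COMM probes were higher, against 8.27% and 12.9% lower, beside 15.0% and 10.6% over all probes tested. On S2, 11.4% of the AK and 13.2% of the COMM probes were higher and 3.79% and 7.60% lower, beside 8.12% and 5.44%. E5 and END3TU probes lay nearer to the shares over all probes, with 15.9% and 18.4% higher on S1. SPEC probes were split evenly, with 216 higher and 218 lower on S1 and 83 of each on S2. CDS probes of gene models were called least often. On S1 4.53% were higher and 8.51% lower, so that lower calls prevailed, and on S2 the shares were 2.58% and 2.86%. END probes had 9.28% higher and 8.32% lower on S1. That excess turned round under scaling to the 75th percentile, with 567 higher and 649 lower on S1 and 256 and 282 on S2.

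AK and COMM probes also had the highest median differences and CDS probes the lowest. The median was 0.58 for AK, 0.23 for COMM and -0.24 for CDS probes on S1, and 0.66, 0.31 and -0.35 on S2, beside -0.05 and -0.09 over all probes tested. Without the upper limit the AK median was 0.77 on S1 and 0.90 on S2. With the limit, the other 4 classes lay between -0.22 and 0.04. The size of these shifts was not the same in both replicates. The median of the CDS probes on S1 was -0.0045 between the replicate 1 arrays and -0.46 between the replicate 2 arrays. That of the AK probes on S1 was 0.37 and 0.83, and that of the COMM probes 0.09 and 0.41. The signs of the AK, COMM and CDS medians were the same on both designs under scaling to the 75th percentile, quantile normalization, normexp with loess and Aquantile, and no upper limit. The excess of lower over higher CDS calls on S2 turned round under normexp, with 258 higher and 235 lower.

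Signal level differs between the classes, and the shares were therefore also taken within ranges of signal for all classes but AK. The AK probes were far brighter, with a median of 42533 in root and 25158 in shoot on S1, against 1366 and 1331 over all probes tested. Their shares higher in root, 31.2% on S1 and 11.4% on S2, stand beside 23.6% and 10.9% in bin 10 of signal. The part of brightness in the AK shares was not tested. Between a mean scaled signal of 2000 and 8000 on S1, 25.2% of 3441 COMM probes were higher in root, as were 21.0% of 1241 END3TU, 14.2% of 506 SPEC and 5.85% of 1129 CDS probes. In the same range on S2 the shares were 14.5%, 12%, 6.64% and 3.81% in the same order. The shares of probes lower in root were closer together at this level, with 13.0% of the COMM and 9.83% of the CDS probes on S1. From a signal of 8000 upwards 12.3% of the CDS probes were higher on S1, against 26.1% of the COMM probes. The direction of the CDS calls changed with the level. In this brightest range 9.17% of the CDS probes were lower on S1, and on S2 4.99% were higher and 4.07% lower. Higher calls thus prevailed there, and on S2 also between 500 and 2000, with 3.31% against 3.05%. The order of COMM above CDS in the share higher in root thus held in each of the 4 ranges of signal on both designs.

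**Figure D4:**
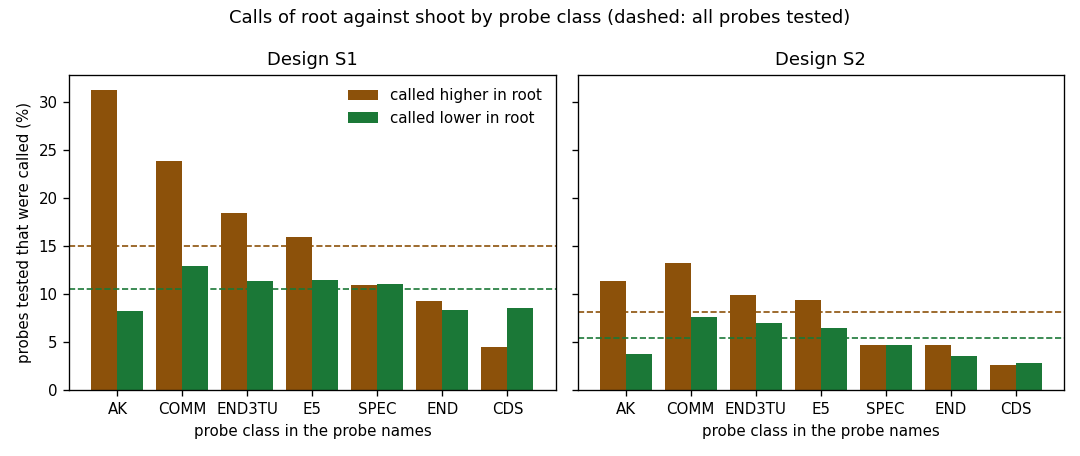
Share of the probes tested in each class that limma called higher (brown bars) or lower (green bars) in root than in shoot, in percent, with dashed lines for all probes tested, S1 on the left and S2 on the right. The AK and COMM bars for higher in root stand above the dashed line on both designs, and those of the SPEC, END and CDS probes stand below it.

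Probes of cDNA loci carry a chromosome in their names, and the tissues differed on all 12 chromosomes to a like extent. The share higher in root ran from 17.3% on chromosome 11 to 21.6% on chromosome 5 on S1, beside 19.6% over the probes of all chromosomes. On S2 it ran from 8.75% on chromosome 11 to 12.02% on chromosome 3, beside 10.8%. Chromosome 11 thus had the smallest share on both designs, and its median differences of -0.04 and -0.05 lay below those over all chromosomes (0.07 and 0.08). Many loci have probes on both designs, so the designs are not independent here. The share lower in root ran from 10.4% (chromosome 9) to 13.3% (chromosome 8) on S1 and from 5.54% (chromosome 12) to 8.18% (chromosome 9) on S2, with no chromosome at the same end on both designs. Loci marked F and loci marked R in the names differed by little, with 19.4% and 19.8% higher on S1.

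Many loci had several probes, so the probes of a locus could be compared. On S1, 2532 loci had at least 2 tested probes. Of these, 328 had at least 2 probes higher in root and 217 at least 2 lower, while 26 had probes called in opposite directions. On S2 the numbers were 206, 140 and 6 of 2513 loci. Both designs together gave 46 loci with opposite calls. The common probe and an E5 probe of a locus correlated at 0.770 over 2619 pairs on S1 and 0.789 over 3139 on S2. The common and a specific probe correlated less, at 0.595 over 940 and 0.554 over 830 pairs. Where the common probe was higher in root on S1, the E5 probe was higher too in 327 of 506 pairs and lower in 8, and the specific probe was higher in 58 of 182 and lower in 3.

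At 4 loci the gap between probes called in opposite directions was largest, 2 on each design. Locus R10-00182R had 9 tested probes, of which 5 were higher and 1 lower in root. Its common probe had 40824 and 43885 on the root arrays, against 453 and 426 on the shoot arrays on S1 (log2 difference 6.59, SE 0.28, limma's adjusted p 2.2e-06), and E5_08185 had 5553 and 6049 on the root arrays, against 211 and 549 on the shoot arrays (log2 difference 4.09, SE 0.49, limma's adjusted p 0.00023). On S2, E5_09629 had 24864 and 35471 on the root arrays, against 598 and 1351 on the shoot arrays (log2 difference 5.05, SE 0.49, limma's adjusted p 0.00106). Against these, E5_00032 had 757 and 711 on the root arrays, against 6796 and 9193 on the shoot arrays (log2 difference -3.43, SE 0.28, limma's adjusted p 2.73e-05), so that at this probe shoot was the brighter tissue on every array. The call of E5_04270, another of the higher probes, was lost without NB shoot replicate 1 and without either root replicate (limma's adjusted p 0.0728 to 0.186). The files do not tell which transcripts each probe binds, and signal from a copy of the gene elsewhere was not tested.

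At R11-00069F the common and a specific probe parted. On S2 R11-00069F_C had 765 and 1187 on the root arrays, against 22585 and 30438 on the shoot arrays (log2 difference -4.78, SE 0.56, limma's adjusted p 0.00196), while R11-00069F_S1 had 4830 and 7397 on the root arrays, against 459 and 735 on the shoot arrays (log2 difference 3.36, SE 0.61, limma's adjusted p 0.0109). The call of the specific probe did not hold when NB root replicate 2 or either shoot replicate was left out (limma's adjusted p 0.0511 to 0.0857). A second specific probe, measured on S1, was not called (log2 difference -1.09, SE 0.69, limma's adjusted p 0.31). At R01-00448R the specific probe R01-00448R_S1 had 11761 and 20950.3 on the root arrays, against 418 and 376 on the shoot arrays (log2 difference 5.31, SE 0.40, limma's adjusted p 1.59e-05), and E5_01937 had 318 and 344 on the root arrays, against 769 and 1093 on the shoot arrays (log2 difference -1.47, SE 0.37, limma's adjusted p 0.0165), a call lost without either root replicate and without NB shoot replicate 2 (limma's adjusted p 0.0774 to 0.118). The other 5 tested probes of this locus were not called. At R09-00272F, 2 E5 probes were lower and 2 higher in root among 10 tested. E5_02701 had 6019 and 3916 on the root arrays, against 45952 and 63448 on the shoot arrays (log2 difference -3.48, SE 0.48, limma's adjusted p 0.00387) and E5_02115 a log2 difference of -2.39, both on S2. E5_07924 on S1 had 1557 and 1577 on the root arrays, against 115 and 261 on the shoot arrays (at least 7.42-fold higher in root, limma's adjusted p 0.000502), and E5_06138, not above background on the shoot arrays of S2, was at least 3.799-fold higher in root. The common probe of that locus had a log2 difference of -0.39 and was not called. The call of E5_02115 was lost without NB root replicate 2 or either shoot replicate (limma's adjusted p 0.0571 to 0.0692), and that of E5_06138 without NB root replicate 2 or NB shoot replicate 1 (0.096 to 0.0998).

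**Figure D5:**
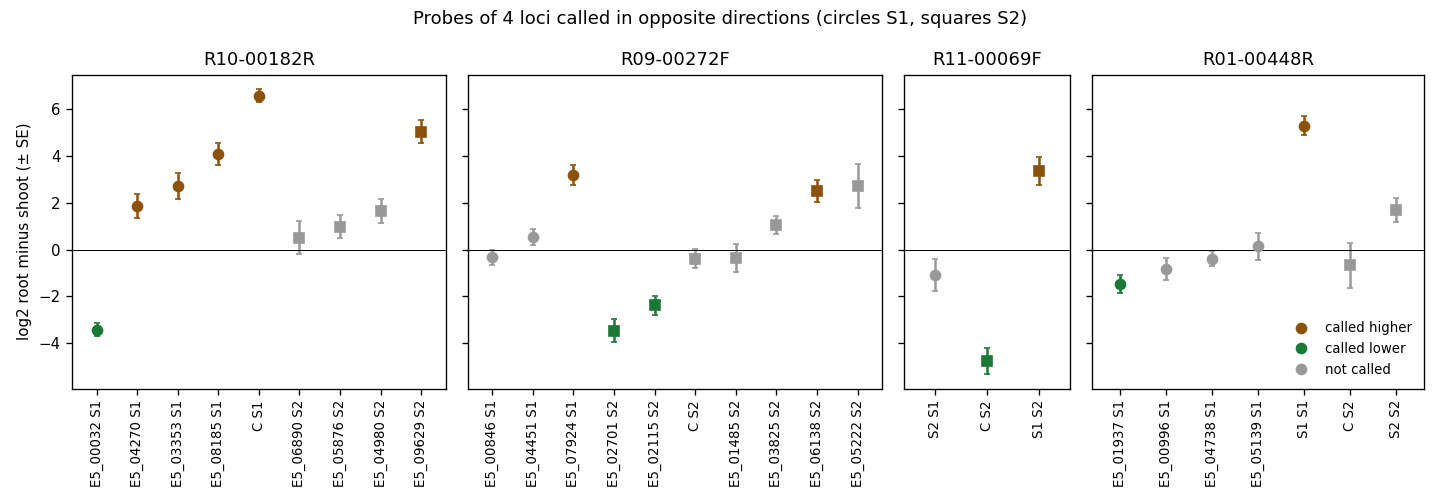
Fitted log2 difference of root minus shoot with its SE, also where a tissue was at background, for each tested probe of the 4 loci, circles for S1 and squares for S2, coloured brown where called higher, green where called lower and grey where not called. At R10-00182R, 5 probes stand above 0 as calls and 1 below, and at R11-00069F the common probe and a specific probe of S2 stand on opposite sides.

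Loci that follow each other in number on the same strand of a chromosome were called in the same direction somewhat more often than loci in general. With calls of both designs joined, 20.3% of 19975 loci had a probe higher in root and 12.1% had one lower. After a locus with a higher call the next locus had one in 23.5% of 3943 cases, and after a locus with a lower call the next had one in 16.0% of 2341. On S1 alone these shares were 27.7% beside 23.6% and 18.8% beside 14.3%, and on S2 alone 16.8% beside 13.2% and 13.5% beside 8.13%. With both designs joined, the longest runs of higher calls held 6 loci and were found in 3 places, and the longest run of lower calls held 5. On a single design the longest run of higher calls held 5 loci on S1 and 4 on S2. Each locus of a run has a call by definition, but not all probes of such a run were called. Of the 3 longest, R05-00485F to R05-00490F had 7 of 16 tested probes higher in root, R08-00226R to R08-00231R had 6 of 7, and R08-00158F to R08-00163F had 12 of 13. At R05-00488F only E5_01527 was called (limma's adjusted p 0.0326), while the common probe had a log2 difference of -0.0058. Near-identical neighbouring genes could share signal, and this was not tested.

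In the run R08-00158F to R08-00163F on chromosome 8, locus R08-00160F led on both designs. Its probe E5_06750 had 52073 and 44614 on the root arrays, against 179 and 274 on the shoot arrays on S1 (at least 218-fold higher in root, limma's adjusted p 2.56e-06), and its common probe had 18519 and 27332 on the root arrays, against 79.1 and 156 on the shoot arrays on S2 (at least 84.3-fold higher in root, limma's adjusted p 0.000602). At the ends of the run, R08-00158F_C had 34766 and 44694 on the root arrays, against 6165 and 4918 on the shoot arrays and R08-00163F_C had 12683 and 27105 on the root arrays, against 487 and 276 on the shoot arrays. In the other direction, each of the 5 tested probes from R03-00975R to R03-00979R on chromosome 3 was lower in root, with fitted log2 differences of -5.49 to -3.55. R03-00976R_C had 1934 and 2564 on the root arrays, against 100000 on both shoot arrays on S2 (at least 44.9-fold lower in root, limma's adjusted p 0.000988), and R03-00978R_C had 2467 and 3942 on the root arrays, against 35304 and 37795 on the shoot arrays on S1 (log2 difference -3.55, SE 0.46, limma's adjusted p 0.00039). These runs were picked by their calls, after the values were seen, so their values only describe them.

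A group of END3TU probes on chromosome 12 drew together 3 of the 10 leading root probes. Of 22 tested probes between R12-E3TU-00726F and R12-E3TU-00755F, 10 were higher in root and 0 lower, beside 18.4% of all END3TU probes higher on S1 and 9.91% on S2. Beside R12-E3TU-00737R, R12-E3TU-00739R and R12-E3TU-00749F, described above, R12-E3TU-00740R had 100000 on both root arrays, against 1616 and 1322 on the shoot arrays (at least 68.4-fold higher in root, limma's adjusted p 3.58e-05), and R12-E3TU-00741R had 100000 on both root arrays, against 2603 and 2687 on the shoot arrays (at least 37.8-fold higher in root, limma's adjusted p 6.51e-06). R12-E3TU-00755F had 1265 and 1769 on the root arrays, against 164 and 152 on the shoot arrays (at least 7.08-fold higher in root, limma's adjusted p 0.000548). R12-E3TU-00737F, which has the number of R12-E3TU-00737R on the other strand, had 301 and 236 on the root arrays, against 408 and 454 on the shoot arrays, and was not called (log2 difference -0.69, SE 0.60, limma's adjusted p 0.546). The group was picked after its values were seen.

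The levels in the other samples show where the differing probes stood outside root and shoot. Probes at least 8-fold higher in root on S1 had a median scaled signal of 12569 in root, 2397 in panicle, 2089.9 in callus, 574 in IR64 shoot and 539.9 in NB shoot. For those at least 8-fold lower in root the medians were 1109 in root, 3425 in panicle, 1165 in callus, 20307 in IR64 shoot and 25455 in NB shoot. IR64 shoot thus stood near NB shoot in both sets. Its level took part in the filter on detected probes and in the shared spread, but not in the contrast. It also carries the limit on sequence differences given at the start. On the log2 scale its mean was nearer to NB root than to NB shoot for 3.04% of the probes called higher and 12.2% of those called lower in root on S1, and for 1.19% and 13.5% on S2. Callus stood near root mainly where root was the dim tissue. It was nearer to root for 84.9% of the probes lower and 57.0% of those higher in root on S1, and for 89.7% and 49.8% on S2. Panicle, with 1 array on S2, was nearer to root for 70.1% of the lower and 65.0% of the higher probes on S1, and for 76.1% and 47.5% on S2.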

How the data were processed

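RNA of NB root and NB shoot was hybridised to 2-colour Agilent arrays with the same RNA in the Cy3 and Cy5 channels. Per the file headers, the authors processed the scans with Feature Extraction 8.1.1.1, while the submitters' processing notes name version 7.5. The deposited processed signal intensity is background-subtracted and dye-normalized within an array (linear and LOWESS). The deposited flags mark outliers and spots that differ from background at p 0.01 and exceed it by 2.6 standard deviations (well above background). The deposited log10 ratio and its p-value compare the dyes and were not used. The labels give the RNeasy kit for both tissues, the methods Trizol for shoots. Per the labels there are 8 samples in 4 groups of 2.

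Control and outlier spots were left out, each channel was scaled to a median of 1000 with a limit of 100000, and log2 values of the channels were averaged. limma 3.58.1 (R 4.3.3, lmFit and eBayes, two-sided) fitted all 5 groups of a design, over probes well above background in both channels on every array of at least 1 group, with Benjamini-Hochberg adjustment within each design and calls at adjusted p below 0.05. The number of arrays limits the precision. The members, lists and rules were chosen with earlier results of these data known. Planned lists of gene functions and cell type markers could not be used, since 0 identifiers matched gene names.

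Probes named had to be called with no overlap between root and shoot arrays, 1 per locus, in each design and direction: 5 with the largest lower bound of the fold and not above background in the dimmer tissue, 3 with the largest difference among those measured on all 4 arrays under the limit, 3 AK probes per direction with the largest mean difference called on both designs, and 2 loci per design with the largest gap between opposite calls. Alternatives were other filters, fits, scalings (75th percentile, quantile), normexp (offset 50) with loess and Aquantile, single dyes, no limit, blocks, single arrays left out and a 2-fold minimum. The rest used Python 3.11.15, numpy 2.4.6, pandas 2.3.3 and matplotlib 3.10.9.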

Additional observations from a re-analysis of the deposited data

Results flagged for a closer look

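A control spot outside the main measurement differed strongly between the tissues. The control named CAB_QC is printed at 98 spots of each array and was left out of the fits with the other controls. Its median scaled signal on S1 was 1075 and 646 on the root arrays, against 19795 and 23849 on the shoot arrays, a log2 difference of -4.70. On S2 it was 860.1 and 382 on the root arrays, against 22141 and 11229 on the shoot arrays, a log2 difference of -4.78. Every shoot array was above every root array. The other 57 control names, which mark no tissue in the files, had differences of -1.0012 to -0.35 on S1 and -1.16 to -0.26 on S2. The files do not say what the name stands for. With 2 arrays a side on each design no result of the report came from a group large enough for a check of single outlying arrays.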

How the results depend on the processing

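The count of probes called was most sensitive to the replicates. Leaving out 1 array gave 5560 to 6985 calls on S1, against 9418 with all arrays, and 1867 to 3038 on S2, against 4897. On S1 the counts were 5560 without NB root replicate 2 and 6238 without NB shoot replicate 2. On S2 they were 3038 and 1978 without NB root replicate 1 and 2, and 2003 and 1867 without NB shoot replicate 1 and 2, where the lone array was taken to vary like the other groups, and fewer samples entered each of these fits. With the replicate number as a replicate block 12821 probes were called on S1 and 12362 on S2, and all calls of the fit without the block remained. The deviations of same-numbered root and shoot arrays correlated at 0.114 on S1 and 0.569 on S2, and all replicate 2 arrays shared a scan day while the replicate 1 arrays of root and shoot did not. The labels do not say that a number marks a shared batch, and 2 numbers are too few to tell. Scan date as a block gave 8811 calls on S2. The remaining settings gave between 9093 and 12375 calls on S1 and, without the date block, between 4366 and 6655 on S2, each within 1.5 times the main count. No probe called in the main setting was called the other way in any of these. The share of calls higher in root was 53.8% on S1 and 54.5% on S2 under scaling to the 75th percentile, against 58.6% and 59.9%.

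The weaker detection rule gave 84 and 114 root-only and 17 and 23 shoot-only probes on S1 and S2, because far fewer spots fail it. Under normexp, loess and Aquantile the AK probes called numbered 623 for S1 (main setting 406) and 463 for S2 (main setting 156), with 455 called on both designs against 156, and 329 probes of chromosome 8 on S2 against 213. Scaling to the 75th percentile called 265 AK probes on S2. The cause of these moves was not tested. The other counts by class and chromosome stayed within 1.5 times the main count under both settings. The 38 probes named for the size of their difference (44 measurements, since AK probes are on both designs) kept direction and call in all 660 refits under 15 settings, but the size moved. These probes were picked as the most extreme of those called, and the refits used the same arrays. Their direction and call were thus largely settled by the choice. The change in log2 size ran from -3.15 to 1.93 under normexp, loess and Aquantile (median -1.55), from -0.94 to 1.16 with scan date as a block, and up to 2.74 without the upper limit and 2.22 under scaling to the 75th percentile. Of the 14 called probes at loci with opposite calls, 14 of 210 refits lost the call, each time with 1 array left out. Brightness limits the dim probes, since a signal below 129.7 to 372, by array, was not detected.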

Other observations

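Further runs of neighbouring loci with higher calls in root held differences of very different size side by side, and not all of their probes were called. These runs were picked by their calls and their values describe them only. Each locus of a run has a higher call by definition, so high counts of called probes are built in. From R05-00086F to R05-00090F on chromosome 5, each of 5 tested probes was higher in root. R05-00088F_C had 27551 and 51321 on the root arrays, against 171 and 167 on the shoot arrays (at least 175-fold higher in root, limma's adjusted p 2.57e-06), while R05-00090F_C, 2 loci on, had 100000 on both root arrays, against 32798 and 40129 on the shoot arrays (at least 2.76-fold higher in root, limma's adjusted p 0.0101). From R12-00096R to R12-00100R on chromosome 12, all 9 tested probes were higher, and R12-00100R_C had 18345 and 28572 on the root arrays, against 86.1 and 206 on the shoot arrays (at least 108-fold higher in root, limma's adjusted p 1.17e-05). From R03-00210R to R03-00214R on chromosome 3, 14 of 15 tested probes were higher. R03-00210R_C had 63590.1 and 91322 on the root arrays, against 507 and 382 on the shoot arrays (log2 difference 7.44, SE 0.39, limma's adjusted p 3.06e-06), and the 10 tested probes of the neighbour R03-00212R, on both designs, had log2 differences of 3.63 to 4.09.

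On chromosome 10, R10-00463F_C had 32180.4 and 18370.1 on the root arrays, against 511 and 359.8 on the shoot arrays on S2 (log2 difference 5.83, SE 0.47, limma's adjusted p 0.0006), and the next locus, measured on S1, had 21763 and 28346 on the root arrays, against 458 and 364 on the shoot arrays for R10-00464F_C (log2 difference 5.93, SE 0.34, limma's adjusted p 4.5e-06). All 5 tested probes of the run R10-00461F to R10-00465F were higher in root. On chromosome 8, the run R08-00226R to R08-00231R had 6 of 7 tested probes higher, with R08-00228R_C at 23476 and 54588 on the root arrays, against 297 and 246 on the shoot arrays (log2 difference 7.05, SE 0.54, limma's adjusted p 0.000562). The leading root probe R02-00721R_C opened a run of 5 loci up to R02-00725R, whose common probe had 29447 and 31662 on the root arrays, against 1151 and 986 on the shoot arrays (log2 difference 4.84, SE 0.44, limma's adjusted p 0.000879). In that run 6 of 8 tested probes were higher in root. The numbers were 11 of 17 in the run that starts at R02-00366R, 5 of 7 in that at R07-00444F and 5 of 6 in that at R07-00783F, with 0 lower in each. A run needs a higher call at each of its loci, so high counts are built in. Over all probes tested 15.0% were higher in root on S1 and 8.12% on S2. Whether neighbours of a run are copies of a gene was not tested.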
